A study of Homo sapiens with 6 samples.

Results

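The Hu, PTB and NOVA families of RNA-binding proteins were described here through the polyadenylated 3′ ends of their own transcripts. The members were 10 genes, namely ELAVL1, ELAVL2, ELAVL3 and ELAVL4 (the Hu family), PTBP1, PTBP2 and PTBP3 (the PTB family), NOVA1 and NOVA2, and RBFOX2. Every poly(A) 3′-seq peak whose summit lay in the body of a member or up to 4 kb past its 3′ end was taken, which gave 241 of the 200023 peaks of the list. Of these, 187 passed the cutoff used below, a −log10 q-value of at least 5. The libraries came from IMR-32, a neuroblastoma cell line, and formed 3 groups of 2 samples each: cells in DMSO, the solvent, cells in 400 nM THZ531 for 2 h and cells in 400 nM THZ531 for 6 h. The compound THZ531 blocks CDK12 and CDK13, kinases that act on elongating RNA polymerase, by binding them covalently. The study asked where transcripts end under this block, but peaks were called once on merged reads, so every value below belongs to all libraries together. No value can be given for DMSO or THZ531 alone, no replicate error exists, and an interval covers counting error only.

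Hu proteins bind U-rich and AU-rich RNA through RNA recognition motifs and are known for stabilising messages and for altering splicing and poly(A) site choice. ELAVL1 is made in most cell types, while the other Hu proteins are mostly neuronal. PTB proteins bind CU-rich RNA and repress exons, and the exchange of PTBP1 for PTBP2 is a known step of neuronal differentiation. NOVA proteins bind clusters of YCAU through KH domains, and RBFOX2 binds UGCAUG. Several of these families regulate their own messages or those of their relatives through alternative exons.

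Each peak is given by its reads at the summit, the number of extended reads over its highest base. Because identical reads were dropped before the peaks were called, this height counts distinct read positions and is not a linear level of the message. The highest value in the whole list was 200 reads and the highest in the 10 genes was 66. Member peaks had a median of 16 reads and a median width of 122 bp, with a range from 100 to 851 bp. A peak was placed at a transcript end (within 200 bp before or 600 bp past an annotated end), in another exon, in an intron or past the gene. Its 3′ edge, the edge nearest the 3′ end of the gene, marks where the cleavage site of its last reads should lie. Reads were extended to 100 bp, so in a wider peak the reads counted at the summit can end well before this edge. The ends, hexamers and sequence windows given below refer to the edge, and read counts to the summit. The list carries no strand, so each peak was read on the strand of the member.

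Of the 187 member peaks, 137 were intronic, 27 were at transcript ends, 21 were in other exons and 2 lay past the gene end. The intronic share was 73.3% (95% Wilson interval 66.5 to 79.1) beside 64% of the peaks of all protein-coding genes. The transcript-end share was 14.4% (10.1 to 20.2) beside 20.2%. Introns made up 1002 of the 1111 kb of these genes. By family, 76.7% of the Hu peaks were intronic, 61.4% of the PTB peaks, 9 of the 15 NOVA peaks and 83.3% of the RBFOX2 peaks. A total of 28 member peaks had at least 30 reads, of which 13 were intronic, 12 were in a terminal exon and 3 were in exons of noncoding transcript models inside an intron of PTBP1 or PTBP2.

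**Figure D1:**
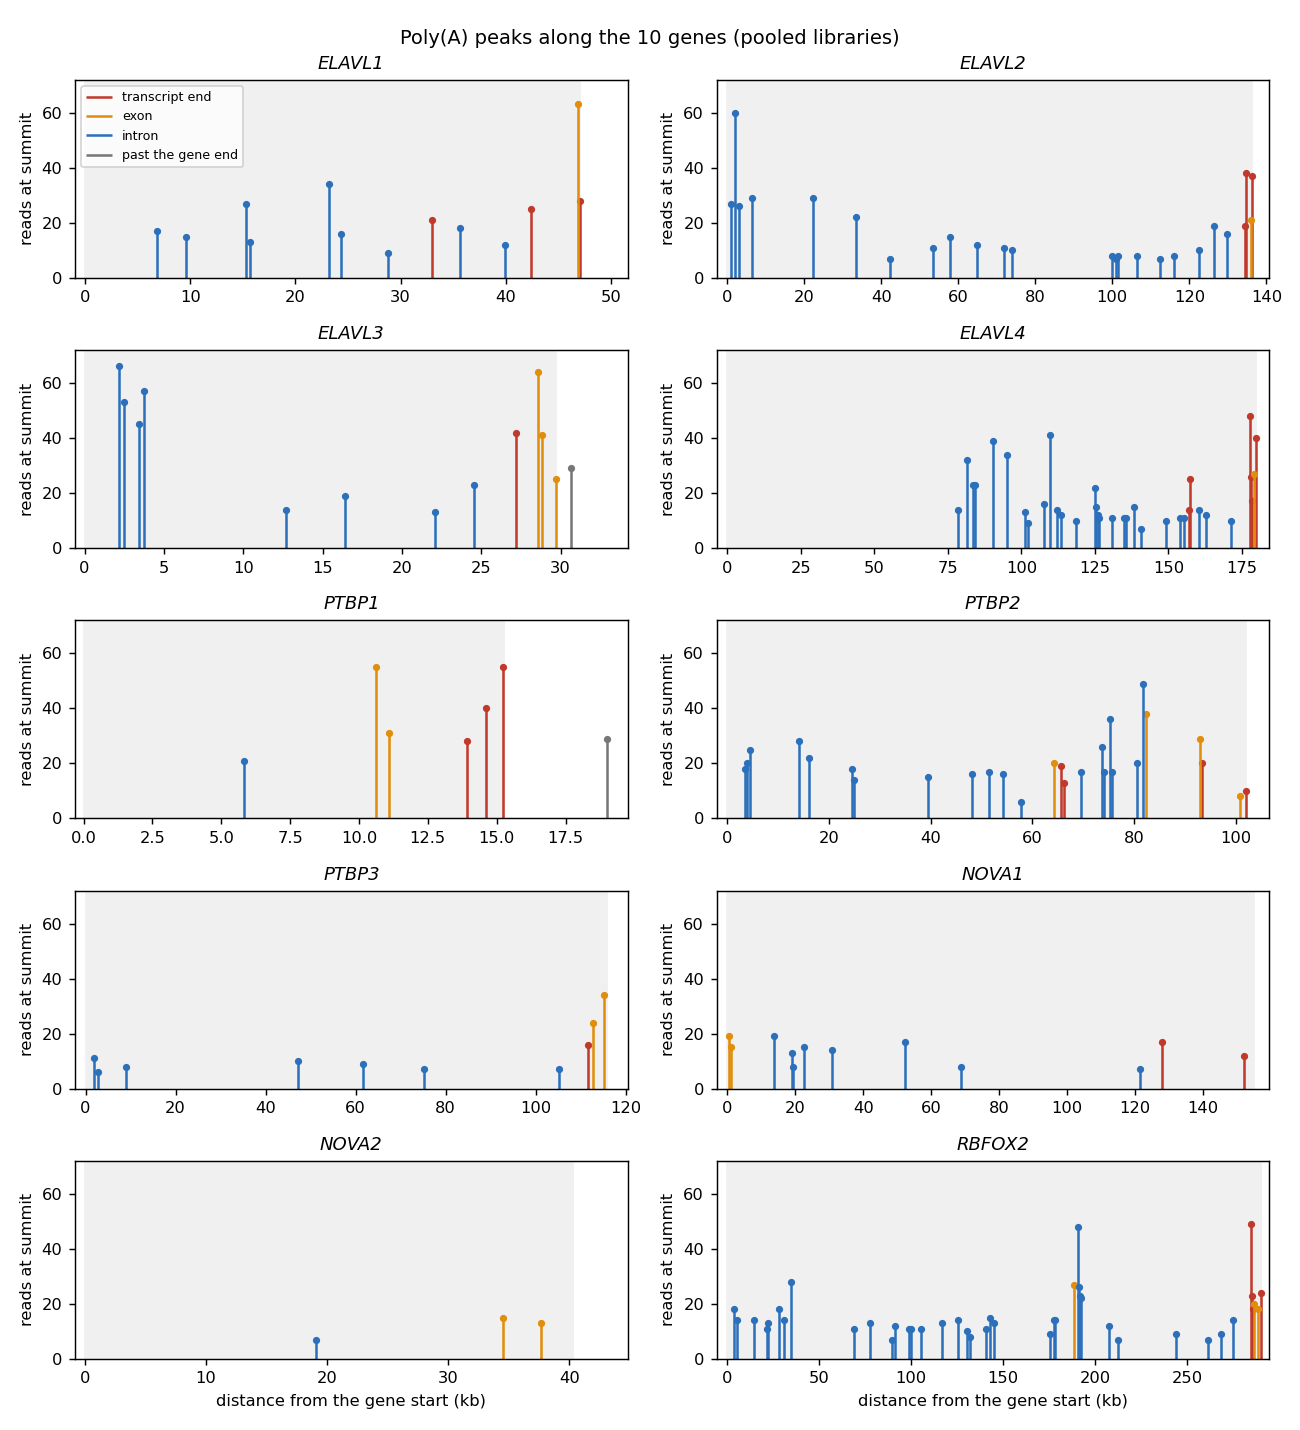
Poly(A) peaks along the 10 genes, with distance from the gene start in kb on the x axis and reads at the summit on the y axis. Each line is 1 peak of the pooled libraries, coloured by class, and the grey field is the gene body. The highest lines stand at both ends of ELAVL2 and ELAVL3, near the 3′ end of ELAVL1 and PTBP3, inside the gene in PTBP2, and with equal height (55 reads) inside the gene and at the 3′ end in PTBP1, while NOVA1 and NOVA2 have no peak above 19 reads.

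All 10 members had at least 1 peak in the terminal exon of their canonical transcript, and 64.8% of 20020 protein-coding genes had one. The members had 33 such peaks, and 9 of the 10 had more than 1, beside 52.3% of the genes with a terminal-exon peak. NOVA1 was the exception. In 8 members a peak ended within 100 bp of the annotated end of the canonical transcript, beside 72.5% of the genes, and the 2 without one were NOVA1 and NOVA2. The tallest terminal-exon peak of a member had a median of 43 reads, and over 12965 genes the median was 25 reads with quartiles of 17 and 36. ELAVL3 (64 reads) and ELAVL1 (63 reads) were at percentiles 97.3 and 97.0 of these genes. For ELAVL1 this place rested on a peak whose summit also lay in another gene, and without it the tallest had 28 reads. PTBP1 with 55 reads, RBFOX2 with 49 and ELAVL4 with 48 stood between percentiles 89.3 and 94.0. ELAVL2 with 38, PTBP3 with 34 and PTBP2 with 29 were between 60.04 and 77.8. NOVA2 with 15 reads and NOVA1 with 12 lay at percentiles 18.2 and 10.5. Neighbours in this order had overlapping counting intervals, and the interval of NOVA1 (6.20 to 21.0 reads) stayed below that of PTBP3 and of each member above it in this order. Without its 63-read peak, the interval of ELAVL1 (18.6 to 40.5) overlapped that of NOVA1. In a bulk library, fewer cells with a message and less message per cell cannot be told apart.

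**Figure D2:**
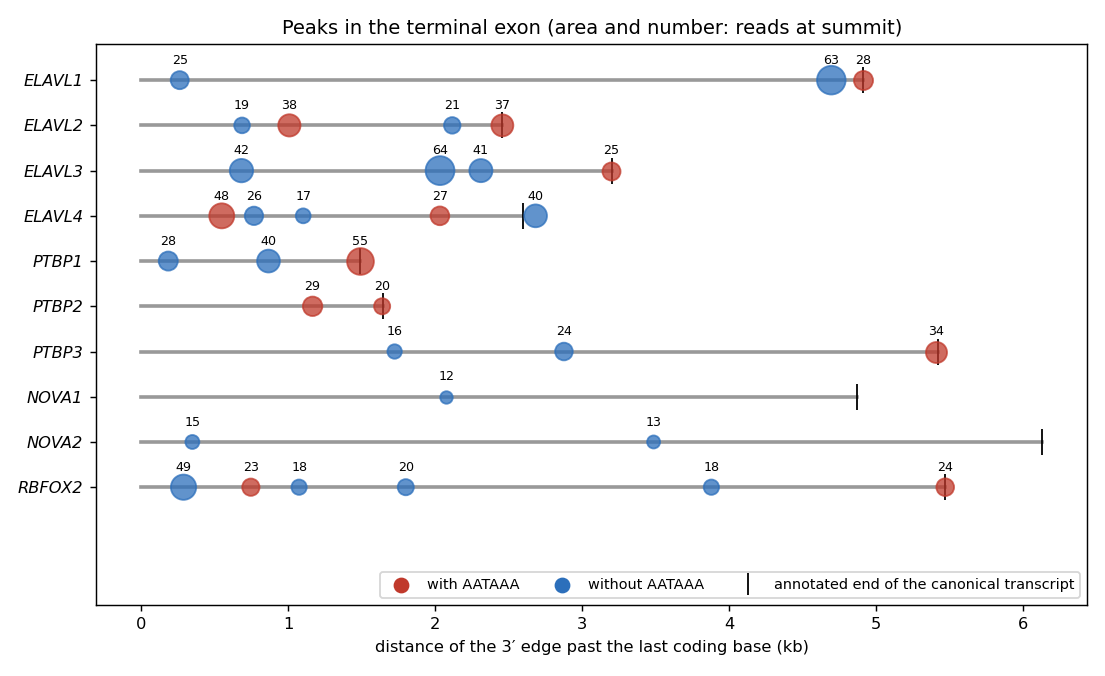
Peaks in the terminal exon of each gene by the distance of their 3′ edge past the last coding base in kb. Circle area and number give reads at the summit, red circles have AATAAA in the 100 bp before the edge, and the bar marks the annotated end. In 8 genes a peak sits at the bar, and 7 of these 8 peaks have AATAAA.

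ELAVL1 encodes HuR, the widely made member of the Hu family, and lies at chr19:7958573-8005659 on the minus strand (GRCh38, as for all positions). Its 3′ untranslated region (3′ UTR) held 3 peaks. The tallest, of 63 reads, ended 217 bp before the annotated end, 28 reads stood at that end itself, and 25 reads ended 263 bp past the last coding base. The 63-read peak was 586 bp wide, with its summit at 7959220 and its 3′ edge at 7958790. Reads extended to 100 bp that cover the summit do not reach that edge. The summit also lay in the body of the plus-strand gene ENSG00000269813, so the strand the peak came from was not tested. For ELAVL2 (HuB, chr9:23690104-23826337, minus strand) the terminal exon had 4 peaks, of 19, 38, 21 and 37 reads at 687, 1009, 2117 and 2458 bp past the last coding base. The peaks of 38 and 37 reads were alike in height, so a shorter and a full-length 3′ UTR gave nearly the same count. ELAVL3 (HuC, chr19:11451326-11481046, minus strand) had 42, 64, 41 and 25 reads at 683, 2034, 2312 and 3196 bp, with the lowest of these at the annotated end. A further 29 reads ended 939 bp past the gene, in the body of the plus-strand gene PRKCSH, which faces ELAVL3. In ELAVL4 (HuD, chr1:50024029-50203772, plus strand) 5 peaks of 48, 26, 17, 27 and 40 reads were spread from 549 to 2684 bp. Its highest peaks were thus the first and the last of the terminal exon, and the last ended 87 bp past the annotated end.

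The windows of 30 bases below begin at the polyadenylation hexamer (capitals) found before the 3′ edge of Hu peaks in the terminal exon. They are shown because, in ELAVL1 and ELAVL3, the edges at annotated ends and the edges of the taller peaks before them follow different hexamers. They lie at chr19:7958780-7958809 and chr19:7958568-7958597 (ELAVL1, 63 and 28 reads), chr9:23691559-23691588 and chr9:23690096-23690125 (ELAVL2, 38 and 37 reads), chr19:11452494-11452523 and chr19:11451317-11451346 (ELAVL3, 64 and 25 reads), and chr1:50201712-50201741 (ELAVL4, 48 reads).
ELAVL1, 63 reads: ATTAAAcaattgttcatagctgtgtagaca
ELAVL1, 28 reads: AATAAAtgaagtgggatcattgcgatgtgc
ELAVL2, 38 reads: AATAAAaaaaatttacaaaagaatatataa
ELAVL2, 37 reads: AATAAAcaaagttgaagggaaagaacagtg
ELAVL3, 64 reads: AAGAAAacacacagaagagatttaaaaaaa
ELAVL3, 25 reads: AATAAAagttcagaatcttaaggccttggg
ELAVL4, 48 reads: AATAAAaattgcaaaaataaaaaaaaactt

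In ELAVL1 the hexamer began 19 bp before the edge of the 63-read peak and 23 bp before that of the 28-read peak, and ATTAAA is the most frequent known variant of AATAAA. The 63 reads at the summit lie too far from that edge to end there, so this ATTAAA is not shown to be theirs. The ELAVL3 peak of 64 reads had AAGAAA as its only hexamer, 28 bp before the edge, and 20 A within 25 bases downstream of it. The 48-read peak of ELAVL4 had AATAAA 12 bp before its edge, with 16 A within 25 bases downstream. Whether reads at these A-rich places came from tails or from priming inside the message was not tested.

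Inside the gene, the Hu members differed in where their tall peaks lay. ELAVL1 had 9 intronic peaks, of which the tallest, 34 reads at chr19:7982505-7982629, was in intron 2, after 57 of its 326 residues. ELAVL2 had 21 intronic peaks, and the tallest peak of the whole gene was one of them, with 60 reads at chr9:23824302-23824619 in intron 1, upstream of any coding base. It ended 1503 bp into that intron and had no hexamer in the 100 bp before its edge. Beside it stood peaks of 27, 26 and 29 reads, all within 5986 bp of the start of intron 1, where the surrounding 10 kb held 479 to 607 reads.

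ELAVL3 was alike in this respect. A run of 4 peaks with 66, 53, 45 and 57 reads ended 1699 to 3304 bp into intron 1, after 3 of its 367 residues, and the first of them was the tallest peak of the 10 genes (chr19:11478900-11479456). The surrounding 10 kb held 1092 to 1112 reads, the most around any member peak, so the enrichment of these peaks over their surroundings was only 3.86 to 5.53. By comparison, the 64-read peak of the terminal exon had an enrichment of 12.8 with 408 reads around it. All 4 summits, and that of another intronic peak farther on, also lay in the body of ENSG00000267477, a gene on the same strand, so reads of the 2 genes cannot be told apart there. With these peaks counted, ELAVL3 had 8 intronic peaks, or 0.341 per kb of intron (95% Poisson interval 0.147 to 0.671), at percentile 98.9 of detected genes of its length quartile. Without them it had 3, or 0.128 per kb (0.0263 to 0.373), with the intron length left unchanged. That interval overlapped those of PTBP2 and ELAVL1, and the 64-read terminal-exon peak was then the tallest of ELAVL3.

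ELAVL4 had 28 intronic peaks, and none of its peaks lay in the first 78.6 kb of the annotated gene, which lie upstream of the canonical transcript. Of the 28, 4 lay upstream of the canonical start, outside the canonical introns, with 14, 32, 23 and 23 reads in order. Peaks of 39 and 34 reads followed in the first 9873 bp of intron 1. The surrounding 10 kb of the peaks of 32, 39 and 34 reads held 355 to 657 reads. Farther into intron 1, 41 reads stood over only 125 reads in 10 kb, an enrichment of 18.7. In addition, 2 peaks of 14 and 25 reads ended at annotated ends of shorter transcripts inside intron 3, after 118 of 366 residues, and both had AATAAA, 24 and 18 bp before the edge.

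The windows of 100 bases below hold the 60 bases up to the 3′ edge and the 40 bases after it, with hexamers of the first 60 bases in capitals. They show the 3′ edge of the tallest intronic peak of ELAVL1 (chr19:7982465-7982564), ELAVL2 (chr9:23824262-23824361) and ELAVL4 (chr1:50133577-50133676). The windows differ in whether a hexamer is present and whether it is part of a repeat.
ELAVL1, intron 2, 34 reads: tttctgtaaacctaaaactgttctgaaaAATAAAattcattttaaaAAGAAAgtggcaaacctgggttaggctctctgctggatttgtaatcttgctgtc
ELAVL2, intron 1, 60 reads: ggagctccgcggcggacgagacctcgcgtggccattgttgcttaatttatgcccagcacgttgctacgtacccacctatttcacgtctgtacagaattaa
ELAVL4, intron 1, 41 reads: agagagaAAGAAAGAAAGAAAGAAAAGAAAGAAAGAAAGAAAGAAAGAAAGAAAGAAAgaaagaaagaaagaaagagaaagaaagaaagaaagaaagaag

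The ELAVL1 site joins AATAAA, 31 bp before its edge, to few A downstream (5 within 25 bases). The ELAVL2 window has no hexamer and 11 A. However, the summit of that peak (23824530) lies farther from its edge (23824302) than reads of 100 bp reach. The window therefore does not cover where its 60 reads end, and whether a hexamer lies there was not tested. The ELAVL4 site lies in a run of AAGAAA repeats, with 19 A within 25 bases downstream, so its hexamers are those of the repeat.

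PTBP1 is the widely made PTB protein and a repressor of neuronal exons. It is the shortest member (15.3 kb, chr19:797075-812327, plus strand) and had 7 peaks. Its terminal exon had 28, 40 and 55 reads at 185, 867 and 1492 bp past the last coding base, so the tallest peak was at the annotated end. A peak of equal height, 55 reads, lay at chr19:807554-807702, in an exon of a noncoding transcript model inside intron 10 of the canonical transcript, after 373 of 557 residues. A peak of 31 reads followed in a like exon inside intron 11, after 384 residues, with no hexamer. Only 1 peak of the gene was classed as intronic, 21 reads in intron 2. The last peak, of 29 reads, ended 3781 bp past the gene end, in the body of the minus-strand gene PLPPR3, which faces PTBP1.

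PTBP2, the neuronal PTB protein (chr1:96721665-96823738, plus strand), showed another order. Its tallest peak, 49 reads at chr1:96803288-96803525, was in intron 8, after 301 of 531 residues. That intron held 7 intronic peaks of 17 to 49 reads, 6 of them with a hexamer, and the next in height had 36 reads. It also held 2 peaks at annotated ends of shorter transcripts (19 and 13 reads) and 2 in noncoding exons (20 and 38 reads). The terminal exon had 29 and 20 reads at 1167 and 1640 bp past the last coding base, both with AATAAA. A longer annotated 3′ end, 10334 bp past the last coding base, had 10 reads. The counting intervals of the tallest intronic peak (36.3 to 64.8) and of the tallest terminal-exon peak (19.4 to 41.6) overlapped. PTBP2 had 19 intronic peaks in all, which is 0.236 per kb (0.142 to 0.369), and 14 of the 19 had a hexamer.

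PTBP3, a relative known mostly from blood-forming and other non-neuronal tissues (chr9:112217716-112333664, minus strand), had 16, 24 and 34 reads in its terminal exon, at 1725, 2877 and 5407 bp, so the tallest was the one nearest the annotated end, which lay 12 bp past its edge. Its 7 intronic peaks had 6 to 11 reads, and their density of 0.0658 per kb (0.0265 to 0.136) was below the median of 0.100 over genes. PTBP2 and PTBP3 are of like length (102 and 116 kb), and the density intervals of the 2 genes did not overlap.

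The PTB sequences below are the hexamer windows of the last terminal-exon peak of each gene, at chr19:812293-812322, chr1:96815025-96815054 and chr9:112218438-112218467, then the windows of the 55-read peak inside intron 10 of PTBP1 (chr19:807643-807742) and of the tallest PTBP2 peak (chr1:96803466-96803565). Capitals mark hexamers as before.
PTBP1, annotated end, 55 reads: AATAAAtcttctgtatcctcgctccgttcc
PTBP2, annotated end, 20 reads: AATAAAtctagatgctgtgaaaatatacca
PTBP3, annotated end, 34 reads: AATAAAtgtcatgacatctgtactctctta
PTBP1, intron 10, 55 reads: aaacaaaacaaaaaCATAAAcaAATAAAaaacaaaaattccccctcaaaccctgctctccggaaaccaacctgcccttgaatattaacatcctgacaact
PTBP2, intron 8, 49 reads: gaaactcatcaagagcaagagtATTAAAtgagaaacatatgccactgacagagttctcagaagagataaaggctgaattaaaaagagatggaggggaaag

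All 3 annotated ends have AATAAA, 22, 17 and 20 bp before the edge. In the intronic windows, AATAAA began 37 bp before the edge in PTBP1, and ATTAAA 37 bp before it in PTBP2. The numbers of A within 25 bases downstream were 10 and 14.

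NOVA1 (chr14:26443090-26598033, minus strand), named for a neuronal autoantigen, had 12 peaks and none above 19 reads. Peaks of 19 and 15 reads were in 5′ exons, and the 19-read one was followed by 24 A within 25 bases. Intron 2, which follows 93 of 507 residues, held 7 intronic peaks of 8 to 19 reads. A peak of 17 reads ended at the annotated end of a shorter transcript inside intron 4, after 173 residues. The terminal exon had a single peak of 12 reads, 2796 bp before the annotated end. NOVA2 (chr19:45933734-45974044, minus strand) had 3 peaks: 15 and 13 reads in the 3′ UTR, at 349 and 3487 bp past the last coding base, and 7 reads in intron 2. It had no peak at an annotated transcript end. Both NOVA genes thus had the lowest tallest peaks of the 10 genes, but the lowest median over all peaks was that of PTBP3. It was 9.5 reads, beside 14.5 in NOVA1 and 13 in NOVA2. The NOVA genes also had the fewest intronic peaks per kb. The densities were 0.0565 (0.0244 to 0.111) in NOVA1 and 0.0329 (0.00083 to 0.183) in NOVA2. The NOVA2 interval overlapped that of every other member. The NOVA1 interval was apart only from that of PTBP2 and, with its peaks inside another gene counted, that of ELAVL3.

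The hexamer windows of the NOVA terminal exons, at chr14:26445885-26445914 and chr19:45939513-45939542, are shown because neither has AATAAA.
NOVA1, 12 reads: TATAAAtgtgcttagttcatcatgtagcat
NOVA2, 15 reads: AATAGAaaacaaagcgttattttctctttc

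RBFOX2, a splicing regulator made in many tissues, is the longest member (290 kb, chr22:35738736-36028824, minus strand) and had 42 peaks. Its terminal exon held 6 of them. The tallest, 49 reads, ended 289 bp past the last coding base and had no hexamer, then came 23, 18, 20 and 18 reads, and 24 reads stood at the annotated end with AATAAA. The tallest of its 35 intronic peaks, 48 reads at chr22:35838254-35838375, lay in intron 2, after 79 of 447 residues, with its summit 1912 bp past the start of a shorter transcript within the gene. Peaks of 26, 23 and 22 reads followed within 3333 bp of that inner start, where 507 to 545 reads lay in the surrounding 10 kb. A separate peak of 28 reads in intron 1 was at AATAAA repeats. The sequences are those of the annotated end (chr22:35738726-35738755) and of the 48-read peak (chr22:35838214-35838313), shown because the second joins ATTAAA to a run of A both before the edge and after it, with 18 A within 25 bases downstream.
RBFOX2, annotated end, 24 reads: AATAAAagagagaaacaccattctttgggc
RBFOX2, intron 2, 48 reads: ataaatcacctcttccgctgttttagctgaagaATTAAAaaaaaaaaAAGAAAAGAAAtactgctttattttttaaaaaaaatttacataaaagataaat

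The intronic and terminal peaks of each member were then set side by side. The tallest peak was intronic in 3 of the 10 members, ELAVL2, ELAVL3 and PTBP2, beside 22.6% of 12875 detected genes with introns (genes with a peak in the terminal exon or at a transcript end). In NOVA1 the tallest intronic and the tallest exonic peak were equal, at 19 reads. The ratio of the tallest intronic to the tallest terminal-exon peak ran from 0.324 in PTBP3 to 1.69 in PTBP2, with a median of 0.917 beside 0.818 over 10017 genes with both. In ELAVL3 (66 and 64 reads) and RBFOX2 (48 and 49 reads) both peaks were nearly equal. The intervals were apart in ELAVL1, PTBP1 and PTBP3, where the terminal peak was the higher, and overlapped in the other 7. For ELAVL1 this rested on the 63-read peak inside ENSG00000269813. Without it, the tallest terminal-exon peak had 28 reads (18.6 to 40.5) and the tallest intronic one 34 (23.5 to 47.5), so the order turned and the intervals overlapped. With peaks inside other genes left out, the members with an intronic tallest peak were ELAVL1, ELAVL2 and PTBP2, since ELAVL3 then had 64 reads in the terminal exon and at most 23 in an intron.

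**Figure D3:**
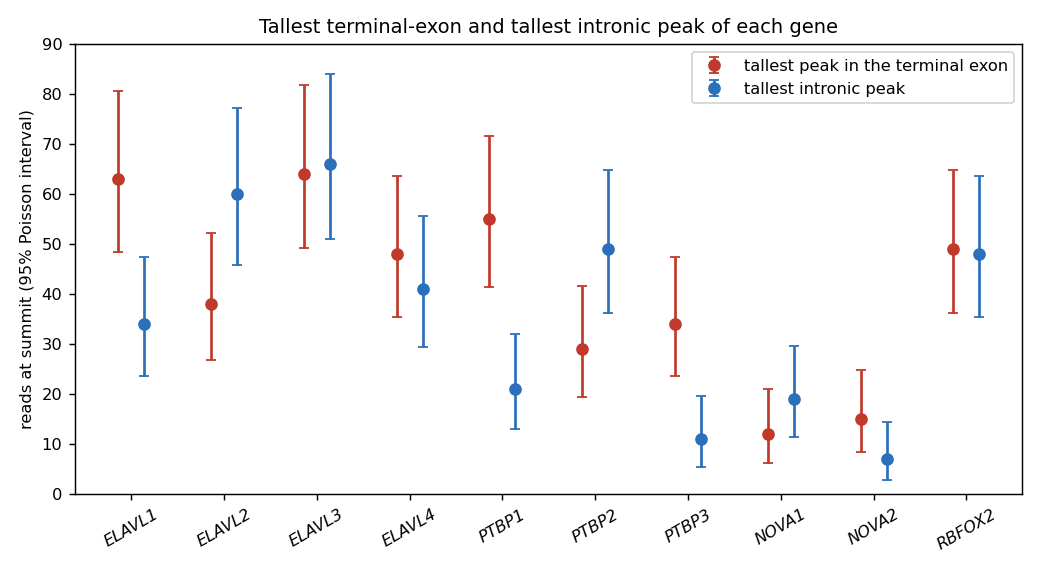
Reads at the summit (y axis) of the tallest terminal-exon peak (red) and the tallest intronic peak (blue) of each gene (x axis), with 95% Poisson intervals that cover counting error only. The terminal peak is clear of the intronic one in PTBP1 and PTBP3, and in ELAVL1 only with its 63-read peak inside another gene (28 and 34 reads without it). The intronic peak is the higher in ELAVL2, PTBP2 and NOVA1, with overlapping intervals, and in ELAVL3 only with peaks inside another gene.

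All 10 members had an intronic peak, and 79.8% of detected genes with introns did. Pooled over the members, there were 0.137 intronic peaks per kb of intron, and pooled over detected genes there were 0.0876. By gene, the median of the members was 0.161 per kb beside 0.100 over genes, and 7 of the 10 members were above the latter. The 3 below it were PTBP3, NOVA1 and NOVA2. A total of 6 members were in the longest quartile of genes, where the median was 13 intronic peaks with quartiles of 7 and 20. RBFOX2 with 35 and ELAVL4 with 28 were above that range, ELAVL2 with 21 was just above it, PTBP2 with 19 was inside, and NOVA1 with 8 and PTBP3 with 7 were at its lower end. NOVA1 (155 kb) had 8 intronic peaks and ELAVL2 (136 kb) had 21. NOVA1 also had the lowest GC content of the members (33.1%, percentile 0.257 of protein-coding genes) and the fewest 5′ splice site hexamers for each AATAAA (0.401). That ratio counts the letters GGTGAG, the letters GGTAAG and the letters GTGAGT, which can pair with U1 snRNA, and it ranged up to 3.40 in PTBP1, with a median of 1.03 over genes. ELAVL3 at 0.619, PTBP3 at 0.644 and PTBP2 at 0.646 had like ratios and densities of 0.341 (0.128 without peaks inside another gene), 0.0658 and 0.236 intronic peaks per kb.

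**Figure D4:**
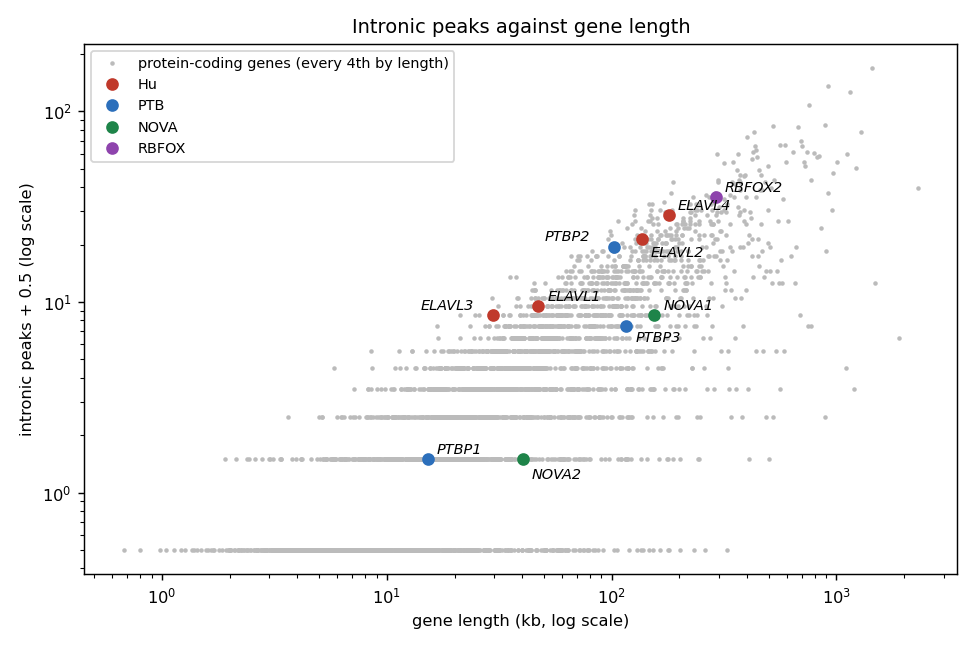
Intronic peaks plus 0.5 (y axis, log scale) against gene length in kb (x axis, log scale) for the 10 genes, coloured by family, over protein-coding genes in grey. Within their length quartile ELAVL1, ELAVL2, ELAVL3, ELAVL4 and RBFOX2 lie at percentiles 77.2 to 98.9, PTBP2 at 72.5, and PTBP1, PTBP3, NOVA1 and NOVA2 at 8.31 to 28.6, with peaks inside other genes counted. PTBP1 is at the short end of its quartile, and its 0.160 intronic peaks per kb are above the median over genes.

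Taken over all members, the reads around intronic peaks were fewer the farther a peak lay from a transcript start. For the 33 intronic member peaks less than 5 kb past the nearest annotated start upstream, a median of 321 reads lay in the surrounding 10 kb, for 48 peaks at 5 to 20 kb it was 92 reads, and for 56 peaks farther on 69.5 reads. Over all protein-coding genes these medians were 146, 95 and 58 reads. Reads at the summit had medians of 23, 13 and 13 in the members, whereas the median enrichment over the surroundings was 5.24, 6.41 and 7.01. By median, the intronic peaks near starts thus stood on more reads, and their enrichment was not above that of the distant ones. The 41-read peak of ELAVL4, also less than 5 kb past a start, was an exception, with few reads around it and a high enrichment. By gene the medians of surrounding reads did not all fall in this order, as in ELAVL1 (111, 151 and 120 reads). Of the 137 intronic peaks, 35.8% (28.2 to 44.1) lay within 10 kb past a start, beside 39.8% of all intronic peaks, and 26.9% of the members' intronic bases did. The intronic peaks of NOVA1 were all farther than 10 kb from a start, but only 7.70% of its intronic bases lay within that distance.

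**Figure D5:**
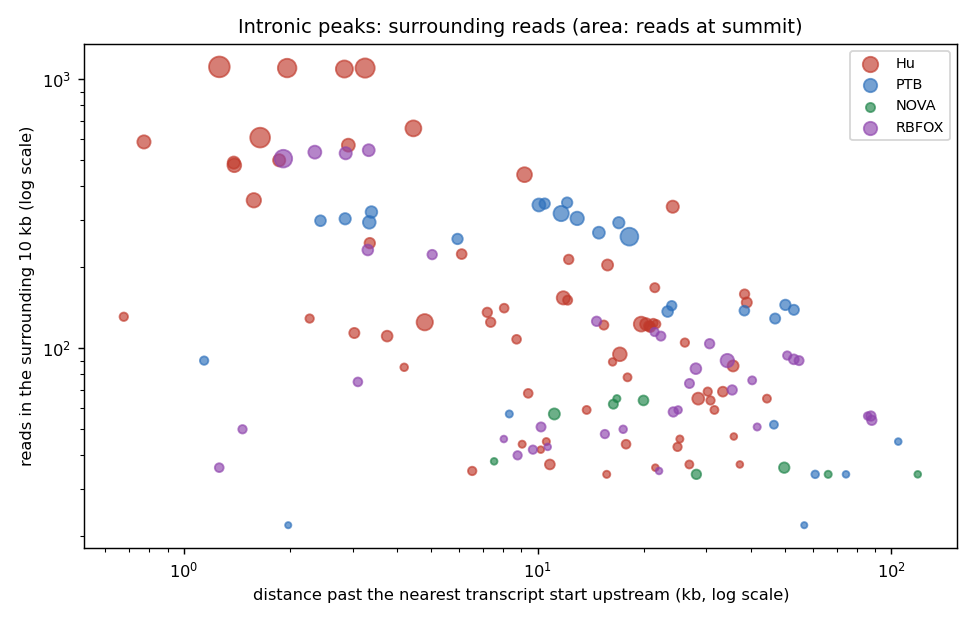
Reads in the surrounding 10 kb (y axis, log scale) against the distance of an intronic peak past the nearest transcript start upstream in kb (x axis, log scale). Each circle is 1 intronic peak of the 10 genes, coloured by family, with its area in proportion to reads at the summit. The ELAVL3 run at 1092 to 1112 reads and the RBFOX2 run at 507 to 545 reads stand at the upper left.

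A polyadenylation hexamer, 1 of the 12 that the study searched for, was found in the 100 bp before the 3′ edge of 63.1% of the member peaks (118 of 187, interval 56.0 to 69.7), beside 62.5% of the peaks of all protein-coding genes. The share was 84.8% in the terminal exons (28 of 33), beside 82%, and 56.2% in introns (77 of 137), beside 57.1%. AATAAA itself was before 36.4% of the terminal-exon peaks (12 of 33, interval 22.2 to 53.4), beside 48.6%, and before 27.01% of the intronic peaks (37 of 137), beside 26.3%. Intronic peaks with a hexamer had a median of 14 reads in the members and those without one had 13. Among members with more than 1 intronic peak, the share with a hexamer ran from 37.5% in ELAVL3 (3 of 8) to 73.7% in PTBP2 (14 of 19). An A-rich stretch of genome, with 22 or more A in 25 bases, was found within 50 bp downstream of 2.14% of member peaks (4 of 187), beside 4.01%, and of 2.19% of their intronic peaks (3 of 137), beside 5.51%. With 18 A in 25 bases the intronic share was 19.7% (27 of 137, interval 13.9 to 27.2), beside 26.9%. Each of these background shares lay inside the interval of the member share.

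The RNA motifs that these proteins bind were searched on the gene strand within 100 bp on either side of the 3′ edge, as TTTTTTT for Hu, CTCTCT for PTB, at least 3 TCAT for NOVA and TGCATG for RBFOX. None of these runs of letters is contained in another or in a hexamer, and the opposite strand was not searched because the proteins bind RNA. At transcript ends, the Hu motif was near 7 of 27 member peaks (25.9%, interval 13.2 to 44.7), beside 14% of all transcript-end peaks. The 7 were 2 peaks of ELAVL4, among them its 48-read peak, 2 of PTBP2 and 1 each of PTBP1, PTBP3 and RBFOX2. The PTB motif was near 1 of 27 (3.70%, beside 6.44%), the NOVA motif near 2 of 27 (7.41%, beside 8.67%) and the RBFOX motif near 1 of 27 (3.70%, beside 5.4%). In introns, the Hu motif was near 9 of 137 peaks (6.57%, beside 9.63%), the PTB motif near 2 (1.46%, beside 4.78%), the NOVA motif near 8 (5.84%, beside 5.87%) and the RBFOX motif near 3 (2.19%, beside 4.84%).

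The peaks with the motif of their own family came from 86 Hu peaks, 44 PTB peaks, 15 NOVA peaks and 42 RBFOX2 peaks. They are to be read beside the shares over all genes given above, and a difference from these was not tested. For the Hu family these were 2 transcript-end and 4 intronic peaks of ELAVL4 and the 29-read peak past the end of ELAVL3, and none of ELAVL1 or ELAVL2. In the PTB family it was the 34-read peak in the terminal exon of PTBP3. The 12-read terminal-exon peak of NOVA1 had the NOVA motif, as did 1 intronic peak each of NOVA1 and NOVA2, and 2 intronic peaks of RBFOX2 had the RBFOX motif. A match is a run of letters, not a shown binding site.

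The genes of 30 other RNA-binding proteins of splicing and 3′ end choice (RBFOX1 and RBFOX3, the CELF, MBNL and KHDRBS families and others) gave a frame for these values. Of the 30, 28 had a terminal-exon peak, 22 had more than 1, and the tallest such peak had a median of 32.5 reads, from 14 in the lowest to 69 in MSI2 and MATR3. Their tallest peak was intronic in 10 of the 30, and the median density was 0.159 intronic peaks per kb, close to the 0.161 of the members. KHDRBS2 and ESRP1 had no terminal-exon peak. RBFOX1, the neuronal relative of RBFOX2, had 15 reads at its tallest terminal-exon peak and 212 intronic peaks in a gene of 2470 kb. All 10 sympathoadrenal markers, which fit the labelled cell line, had a terminal-exon peak, with a median of 69 reads (MYCN had 100), 3 of 3 blood markers had no peak, and among mesenchymal, epithelial and glial markers FOSL1 (38 reads), COL1A1 (15), GFAP (11) and EPCAM (7) had one in the terminal exon.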

How the data were processed

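Poly(A) 3′-seq reads start at the junction of message and tail. Per the labels and the study's methods, the authors mapped reads to GRCh38 with STAR 2.5.1b, keeping reads with up to 20 placements, and called peaks once with MACS2 2.1.1 on merged reads extended to 100 bp, without a control. The methods do not name the merged samples, taken here to be the 6 libraries, and library depth is unknown. Reads shared by paralogs or pseudogenes may be counted at more than 1 place. The deposited list gives, for each peak, a fold enrichment, a ratio of pileup plus 1 to local background plus 1. The authors' caller also wrote a p-value and a q-value, both deposited as −log10. A further deposited score, 10 times the −log10 q, was not used.

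The pileup (reads at the summit) and the background were solved here from fold and −log10 p with scipy 1.17.1. All of 4701 simulated pileups were recovered (100%), and the largest misfit in the list was 0.000172. The background times 100 is printed as reads in the surrounding 10 kb, and for 2 member peaks of 6 reads it lay under the usual floor and is not interpreted. Classes, introns, residues and strand came from Gencode release 44 (the study used another release), and sequences from the GRCh38 reference read with pysam 0.24.0. A summit was classed against the transcripts of its own gene, in the order transcript end, exon, intron, past the gene. Hexamers were searched in 100 bp before the 3′ edge and A stretches in 50 bp after it. Shares over all protein-coding genes count a peak once for each gene whose body or 4 kb flank holds it. Second entries of genes shared by the X and Y chromosomes were dropped. Intervals are 95% Wilson for shares and exact Poisson for counts.

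For each member the text names its tallest transcript-end peak, its tallest intronic peak and peaks of at least 30 reads. The members and lists were chosen with earlier results of these data known. The level of 1 marker gene and 1 sequence window are not reported here. No test between groups was possible with 1 pooled list. Alternatives changed the cutoff, windows, transcripts, merging of peaks, and removal of A-rich peaks or of peaks inside other genes.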

Additional observations from a re-analysis of the deposited data

How the results depend on the processing

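No paired analysis was possible because reads of every library were merged before peaks were called and no value comes from a test. Over 14 alternatives, 54 of 69 values of the 8 summaries stayed within their limits (1.5 times for counts, the 95% interval otherwise) and 15 moved. With −log10 q of at least 20, 27 of 187 peaks were left, 44.4% of them intronic in place of 73.3% and 29.6% at transcript ends in place of 14.4%. At that cutoff the intronic density was 0.0120 per kb in place of 0.137, the hexamer share 88.9% in place of 63.1% and the A stretch share 0% in place of 2.14%. Without a cutoff the density was 0.190 per kb, and without peaks of at least 18 A in 25 bases it was 0.110. With the canonical transcript alone, 80.7% of peaks were intronic and 2.67% at transcript ends, and with ends taken as 100 bp on either side the latter was 9.63%. The hexamer share was 35.8% before the summit rather than the edge, 29.9% for AATAAA alone and 44.9% for AATAAA and ATTAAA, and 16.6% of peaks had at least 18 A in 25 bases. The cutoff, the transcripts and the definitions differ by construction. ELAVL2 and PTBP2 had an intronic tallest peak under each of the 9 alternatives run for it. NOVA1 joined ELAVL2, ELAVL3 and PTBP2 with −log10 q of at least 20 and without peaks of at least 18 A, and without peaks inside other genes ELAVL1 took the place of ELAVL3. Of 89 tallest peaks of single members, 1 moved: without peaks inside other genes, that of ELAVL1 was 34 reads in place of 63. Peak height counts distinct read positions, and intervals cover counting error only. At these counts, peaks of single genes that differ by less than their intervals were not told apart.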
